A study of Mus musculus with 3 samples.

Results

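The 10 genes described here are the tuft cell sensing and eicosanoid genes Dclk1, Trpm5, Il25, Pou2f3, Gnat3, Alox5, Alox5ap, Hpgds, Ptgs1 and Sucnr1. They were listed by symbol among 31053 annotated mouse genes, and they were left out of the clustering that defined the cells in which they are described. Tuft cells are rare chemosensory cells of the intestinal epithelium. They sense luminal metabolites through receptors coupled to taste-type G proteins, and the calcium that follows opens a cation channel. In the small intestine they release interleukin-25, which acts on group 2 innate lymphoid cells, and they carry the enzymes that turn arachidonic acid into prostaglandin D2 and leukotrienes. The members hold roles at each step. Pou2f3 is the transcription factor that tuft cells need to form, and Dclk1 is a kinase widely used as their marker. Sucnr1 is the receptor for succinate, Gnat3 is the G protein alpha subunit gustducin and Trpm5 is the cation channel. Il25 encodes the released cytokine. Ptgs1 is cyclooxygenase-1 and Hpgds the hematopoietic prostaglandin D synthase, while Alox5 is 5-lipoxygenase and Alox5ap its activating protein.

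The cells came from wild-type male C57BL/6N mice of 12 weeks. Live epithelial cells with their intraepithelial immune cells were sorted from the duodenum, jejunum and ileum of 3 mice, the mice were pooled, and 1 single-cell library was made per segment. No group carried a transgene or a treatment. A segment is therefore 1 sample, so differences between segments were not tested, and intervals beside them are 95% exact intervals that cover counting error only. The values are counts of unique molecular identifiers (UMIs), each standing for a captured transcript end, given as UMIs per 10000 UMIs of the same cells.

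The libraries held 8139 to 9595 barcodes, and 16686 of 27235 passed the filters (4255 duodenum, 4360 jejunum, 8071 ileum), with a median of 12424, 11737 and 5536 UMIs. The libraries shared 4 to 12 barcode sequences by pair and none across all 3. Cells were clustered with the members and their pathway genes left out, and classes were named from other markers. The class resembling tuft cells, called tuft cells hereafter, held 298 cells (45 duodenum, 66 jejunum, 187 ileum), which is 1.06%, 1.51% and 2.32% of the kept cells. Each of the 12 markers that named it was found in at least 69.8% of its cells, the share of Hmx2, and Sh2d6 was found in 99.7%. In tuft cells the median depth was 8091, 6306 and 4784 UMIs from duodenum to ileum, the median mitochondrial share 13.6%, 18.4% and 21.2%, and the summed level of 13 enterocyte markers 123, 229 and 139. These values stand beside every difference between segments, and their part in it was not tested.

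In the mouse genome build GRCm38 the members are spread over 7 chromosomes. Dclk1 (ENSMUSG00000027797) lies at chr3:55242364-55539068, Sucnr1 (ENSMUSG00000027762) at chr3:60081869-60087566, Il25 (ENSMUSG00000040770) at chr14:54932695-54935837, Gnat3 (ENSMUSG00000028777) at chr5:17962549-18019834, Alox5ap (ENSMUSG00000060063) at chr5:149264767-149288153 and Ptgs1 (ENSMUSG00000047250) at chr2:36230426-36252272, all on the plus strand. Trpm5 (ENSMUSG00000009246) lies at chr7:143069153-143094642, Pou2f3 (ENSMUSG00000032015) at chr9:43123939-43210369, Alox5 (ENSMUSG00000025701) at chr6:116410077-116461178 and Hpgds (ENSMUSG00000029919) at chr6:65117293-65144908, all on the minus strand. On the opposite strand Trpm5 overlaps the protein-coding gene Tssc4 and Dclk1 the protein-coding gene Gm21954, while Dclk1, Alox5ap, Ptgs1 and Hpgds overlap antisense, rRNA, pseudogene or predicted transcripts there. Whether the counting used strand is not given in the sources used here.

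Because Pou2f3 belongs to the POU factors that bind the octamer ATGCAAAT, the octamer was searched on both strands of the RefSeq promoters (GRCm38.p6, 250 bases before to 50 after each start), which were matched for 7 of the 10 members. It was found for Hpgds, 174 bases before the RefSeq start, and for Sucnr1, 48 bases before it. Of all 32851 promoters of this length, 570 (1.74%) held it. The 30 bases around each match are shown because these are the only member promoters with the motif, and the capitals mark the octamer. They come from chr6:65144886-65144915 on the minus strand, where the octamer falls inside the annotated Hpgds gene, and from chr3:60081810-60081839 on the plus strand, upstream of Sucnr1. A match describes the letters only, and no factor binding was measured.
Hpgds: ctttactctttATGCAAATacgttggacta
Sucnr1: ggctgcataatATGCAAATcagactgcact

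Members in tuft cells and in the other classes were compared first. Every member was higher in tuft cells than in enterocytes, the absorptive cells that made up most of the sample. Levels in tuft cells ran from 21.8 for Dclk1 and 14.1 for Trpm5 down to 0.756 for Gnat3, an order of UMIs only, since the capture of each transcript was not measured. Together the 10 members took 66.5 of every 10000 UMIs in tuft cells (62.7 duodenum, 67.4 jejunum, 68.1 ileum). In edgeR's quasi-likelihood test on UMI sums per library and class, 10 of 10 members passed as higher in tuft cells than in enterocytes, where 21.0% of the 12982 genes tested passed in that direction. Their median log2 fold change was 10.21, against -0.14 over all genes tested. The 3 libraries are segments of 1 pool of mice and were fitted as a block. These p-values rest on the spread of class sums left after that block, estimated over all classes together. They do not measure the spread between mice. All 10 members passed the filter on low counts, and since a gene counted mainly in tuft cells passes through them, that number supports nothing. The members were also chosen as tuft cell genes, with earlier results of these data known. The count of 10 of 10 is therefore a description and is not read against the share of all genes.

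**Figure D1:**
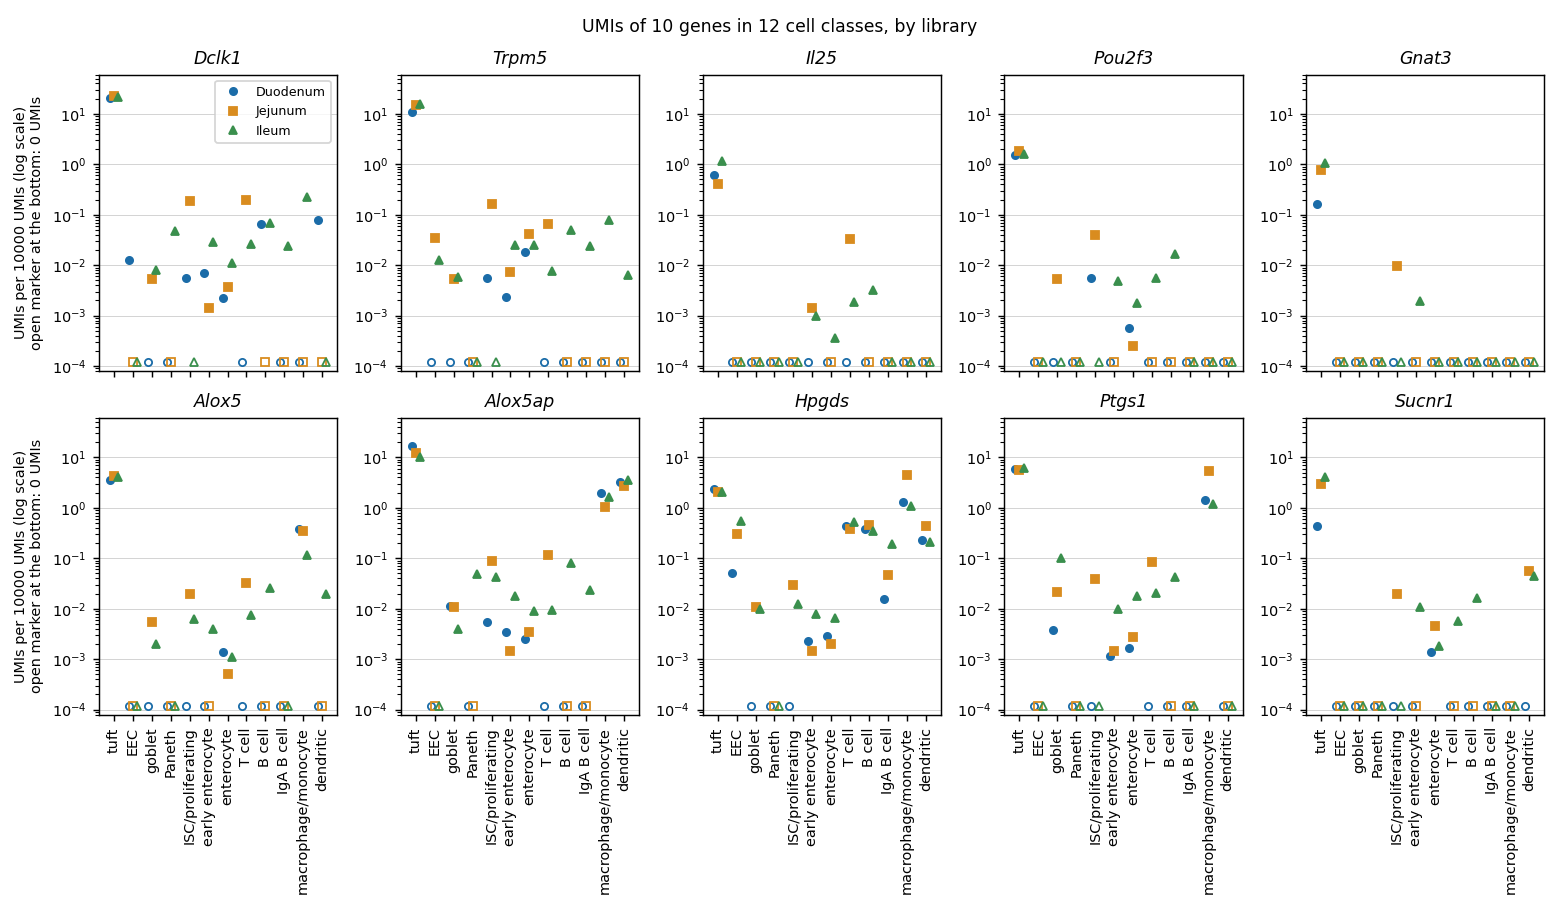
Levels of the 10 members (UMIs per 10000 UMIs, log scale, 1 panel per gene) in 12 cell classes, with a marker for each library and open markers at the bottom for 0 UMIs. For 9 of the 10 members all 3 tuft libraries lie above every other point, while the jejunal macrophage point of Hpgds (4.37) lies above its tuft points (2.07 to 2.40), and Alox5ap and Ptgs1 also show in dendritic cells or macrophages. The share of all genes that lie apart in this way was not counted.

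Dclk1 and Pou2f3, the marker kinase and the lineage factor, were counted at like levels in the tuft cells of each segment. Dclk1 stood at 20.8 in duodenum, 22.4 in jejunum and 22 in ileum, against 0.00227, 0.00377 and 0.0109 in enterocytes. The log2 difference was 11.41 (SE 0.85, adjusted p = 5.57e-12), and no tuft library came near an enterocyte library. Pou2f3 was counted at 1.53, 1.86 and 1.60 in tuft cells, and 8 UMIs were found in all 9618 enterocytes. The difference was 10.02 (SE 0.63, adjusted p = 1.8e-11). Of all UMIs of these genes in kept cells, tuft cells held 95.9% for Dclk1 and 92.5% for Pou2f3.

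The sensing genes followed the same class pattern, and their tuft levels differed more between segments. Trpm5, the channel, was counted at 10.7, 14.6 and 15.6 in tuft cells and at 0.0184, 0.0420 and 0.0254 in enterocytes. It was higher in tuft cells by 8.33 (log2, SE 0.57, adjusted p = 7.7e-13), the smallest of the 10 differences. Gustducin, Gnat3, stood at 0.160, 0.778 and 1.05 in tuft cells. No UMI of Gnat3 was found in enterocytes, which puts tuft cells at least 2584-fold higher against a floor of 3 UMIs over the class (adjusted p = 4.05e-08). Sucnr1, the succinate receptor, was counted at 0.444, 2.97 and 4.14 in tuft cells and at 28 UMIs in all enterocytes. The difference was 8.88 (SE 0.53, adjusted p = 7.4e-12), and tuft cells held 91.1% of its UMIs.

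Il25, the cytokine, was among the lowest members in tuft cells, at 0.604 in duodenum, 0.407 in jejunum and 1.17 in ileum. A single UMI was found in enterocytes, so the ratio of 8579 has a counting interval of 1521 to 340639. The edgeR difference passed (adjusted p = 2.4e-09), and 95.9% of Il25 UMIs lay in tuft cells. Il25 and Gnat3 were the members that did not pass against enterocytes in DESeq2, a second count model, with adjusted p = 0.136 and 0.105. Their log2 differences in that model were 12.5 and 13.4, with wide errors (SE 6.96 and 6.97).

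The eicosanoid genes spanned both branches of arachidonic acid use. Alox5ap was the highest, with tuft levels of 16.6, 12.5 and 10.1 from duodenum to ileum and 48 UMIs in all enterocytes. Its log2 difference was 10.75 (SE 0.67, adjusted p = 2.9e-13). Alox5 stood at 3.61, 4.24 and 4.10 in tuft cells and at 10 UMIs in enterocytes. Its difference of 11.03 had the smallest SE of the 10 (SE 0.47, adjusted p = 1.2e-15). On the prostaglandin branch, Ptgs1 was counted at 5.88, 5.62 and 6.15 in tuft cells and at 66 UMIs in enterocytes. It was higher by 9.32 (SE 0.74, adjusted p = 3.39e-10). Hpgds, which makes prostaglandin D2, stood at 2.40, 2.07 and 2.08 in tuft cells and at 36 UMIs in enterocytes, a difference of 8.56 (SE 0.54, adjusted p = 1.4e-13). Tuft cells held 93.2% of Alox5 UMIs, 79.3% of Ptgs1, 74.5% of Alox5ap and 36.4% of Hpgds. For Hpgds the share was 68.5% in duodenum, 48.3% in jejunum and 26.0% in ileum, the library with the most T and B cells.

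Against the other classes the count was 10 of 10 members higher in tuft cells than in early enterocytes (17.2% of genes passed), goblet cells (14.4%), enteroendocrine cells (12.1%), stem and proliferating cells (19.4%), T cells (19.6%), B cells (20.2%), IgA-producing B cells (15.2%) and dendritic cells (19.9%). Against macrophages and monocytes it was 9 of 10, with 13.8% of genes passing. As against enterocytes, these counts describe genes chosen as tuft cell genes and are not read against the shares. Whether libraries lay apart was looked at for the members only, so it has no share of all genes beside it. In each of these comparisons the 3 tuft libraries lay above all libraries of the other class for the members that passed. The exception was Hpgds against macrophages and monocytes, where the groups overlapped and the difference was 0.47 (SE 0.44, adjusted p = 0.469), although it passed under 5 of the alternatives (lowest adjusted p = 0.0022), 1 of which left only the ileal sum of macrophages, and was -0.065 (adjusted p = 0.977) without the ileum library. In DESeq2 Il25 and Gnat3 passed against none of these classes, Pou2f3 did not pass against stem and proliferating, B, IgA-producing B cells or macrophages, and Sucnr1 not against dendritic cells or macrophages. The counts were then 7 or 8 of 10, and 4 of 10 against macrophages, where Ptgs1 did not pass either. The share of all genes that passed in DESeq2 is not given, and the edgeR shares above do not stand for it.

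The wider pathway lists around these genes were mixed between tuft cells and enterocytes, where over all genes tested 21.0% were higher in tuft cells and 23.4% lower. Of 20 further taste-type signalling genes, 12 were tested, 7 were higher in tuft cells and 3 lower, with a median log2 fold change of 2.45. The higher ones were Ffar3, a short-chain fatty acid receptor (tuft level 3.81, log2 difference 11.28), the G protein subunits Gnai1, Gnai2 and Gng13, the phospholipase Plcb2 (tuft level 1.58), the calcium-release channel Itpr2 (3.24) and the vomeronasal receptor Vmn2r26 (0.300). The lower ones were Gnai3, Gnb1 and Trpm4. Of Gnb3, the beta subunit of taste cells, 1 UMI was found in tuft cells, and of the sweet and umami receptor subunit Tas1r3 2 UMIs.

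Of the arachidonate and leukotriene genes, 13 were tested beside the members, and 5 were higher and 3 lower in tuft cells, with a median of -0.60. Higher were Ltc4s, the leukotriene C4 synthase (tuft level 9.65, log2 difference 5.4), Mgst3 (24.3), the phospholipase Pla2g4a that frees arachidonic acid (1.23, log2 difference 8.87), and, on 7 UMIs each in all tuft cells, the exporters Abcc1 and Abcc4 (adjusted p = 0.000147 and 0.043). Abcc1 was lower in tuft cells than in enteroendocrine cells, T cells, macrophages and dendritic cells. Lower were Lta4h, which leads to leukotriene B4, and the peptidases Ggt1 and Dpep1, which trim leukotriene C4 in successive steps. Among 9 tested prostaglandin genes 2 were higher (Ptgs2 and Ptges3) and 3 lower (Cbr1, Ptgr1 and the transporter Slco2a1), shares near those of all genes, and no UMI of the synthases Ptges and Ptgds was found in tuft cells. None of 7 tested eicosanoid receptors was higher in tuft cells, and Ltb4r1, Ltb4r2 and Ptger4 were lower.

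All 8 tested genes of the tuft regulator list were higher in tuft cells than in enterocytes, with a median log2 fold change of 6.49, among them Sox9 (tuft level 5.90), Hmx3 (1.09) and Gfi1b (0.832). The list was drawn up with tuft cell biology known and holds genes of other lineages too, such as Ascl2, known from stem cells. Ascl2 and Sox4 were lower in tuft cells than in stem and proliferating cells, and Sox4 was also lower than in enteroendocrine cells (0.586 against 3.41). Of 9 tested genes of the type 2 circuit, Il17rb, a subunit of the receptor for interleukin-25 (tuft level 2.28, log2 difference 7.76), and the cytokine Tslp (0.340) were higher. Areg, Il33 and Il4ra were lower. Of these, Il33 rests on 1 UMI in tuft cells, and Il4ra stood at like levels before scaling (0.474 in tuft cells, 0.484 in enterocytes, adjusted p = 0.046). In this list the 2 of 9 that were higher are near the share of all genes. Of 3 tested acetylcholine genes, Chat, the synthesising enzyme, was higher (2.35, log2 difference 11.11), while the esterases Ache and Bche were lower.

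Outside tuft cells, the member with the widest distribution was Hpgds. It was higher than in enterocytes in T cells, B cells, enteroendocrine cells, dendritic cells and macrophages. T cells stood at 0.428 in duodenum, 0.379 in jejunum and 0.514 in ileum, above all enterocyte libraries, with a log2 difference of 5.87 (SE 0.53, adjusted p = 1.4e-10). B cells stood at 0.388, 0.454 and 0.354, a difference of 5.63 (SE 0.57, adjusted p = 1.3e-09). The T and B cell levels of the 3 segments lay close together, and tuft cells exceeded T cells by 2.69 (SE 0.46, adjusted p = 2.0e-05). An unnamed cluster of 403 shallow cells led by the T cell receptor gene Trgv2, with a median of 1201 UMIs, stood at 1.60 on 87 UMIs.

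Hpgds in enteroendocrine cells, the hormone-secreting epithelial cells, was counted at 0.0507, 0.306 and 0.536 from duodenum to ileum. The difference from enterocytes was 5.33 (SE 0.58, adjusted p = 9.5e-09), and Hpgds was the 1 member of 10 that passed there, where 26.6% of genes passed. Of its 55 UMIs in these cells, 36 lay in the 60 cells whose leading hormone was neurotensin (Nts), at a level of 0.705 (0.494 to 0.976). Those cells numbered 7 in jejunum (0.656) and 53 in ileum (0.714), with none in duodenum, and the other hormone groups stood at 0.102 to 0.236, each on 2 to 4 UMIs. In the Gip group Hpgds stood at 0, 0.203 and 0.231 from duodenum to ileum, and in the Tph1 group at 0.0415, 0 and 0.304. The Gcg group and the cells without a leading hormone went from 0 in duodenum to 0.285 and 0.566 in ileum. The Cck and Sst groups, with 1 ileal cell each, went from 0.122 and 0.0859 to 0. Each of these values rests on at most 3 UMIs. The makeup of the class by hormone moved with the segment values of Hpgds, and so did levels within some groups. The part of either was not tested.

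**Figure D2:**
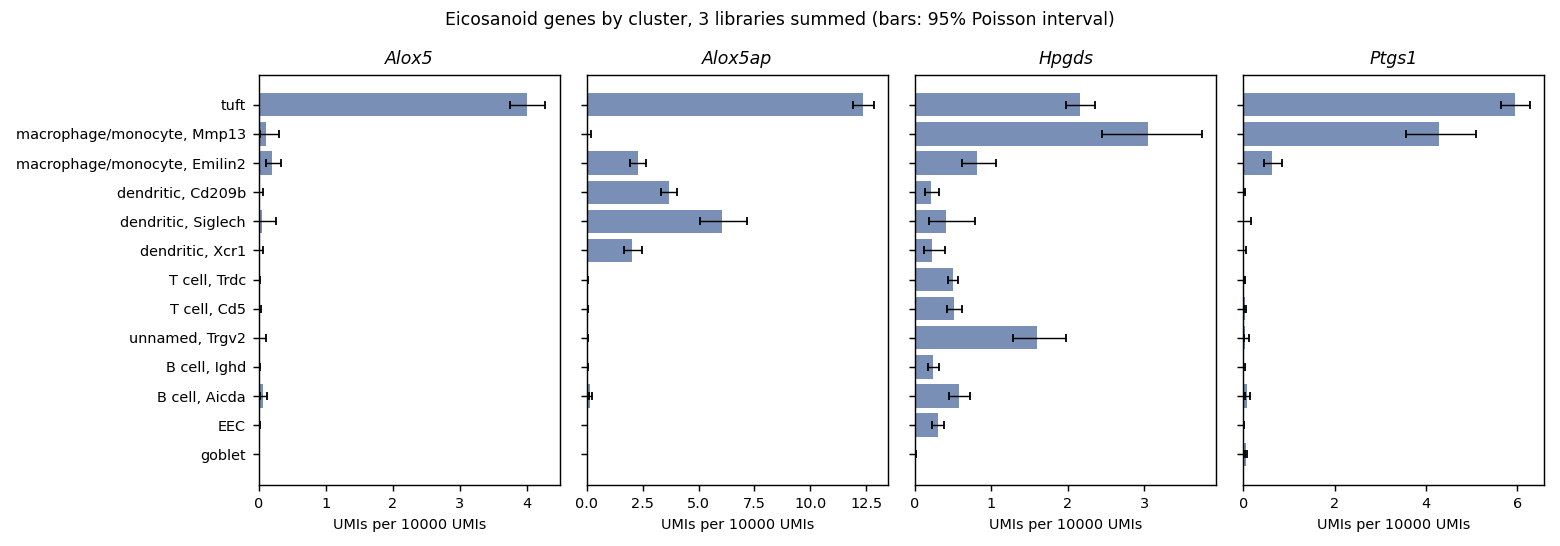
Levels of Alox5, Alox5ap, Hpgds and Ptgs1 (UMIs per 10000 UMIs, linear axes) in tuft cells, immune clusters, enteroendocrine and goblet cells, summed over the 3 libraries, with 95% Poisson intervals, each immune cluster being labelled by one of its leading genes. Hpgds and Ptgs1 stand at 3.05 and 4.28 in the macrophage cluster that has Mmp13 and Timd4 among its leading genes, where Alox5ap is near 0, while Alox5ap stands at 2.04 to 6.06 in the dendritic clusters.

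The macrophage class, 88 cells of a lineage that engulfs debris, came nearest to tuft cells for Hpgds and Ptgs1. Hpgds was counted there at 1.31 in duodenum, 4.37 in jejunum and 1.07 in ileum, so the jejunal library, of 17 cells, lay above all 3 tuft libraries. Ptgs1 ran in parallel at 1.40, 5.42 and 1.2, below each tuft library, and the tuft excess of 1.70 (SE 0.59) passed narrowly (adjusted p = 0.032, with 0.000384 to 0.488 over the alternatives and 0.185 without the duodenum library). With the libraries summed, both genes were higher in a cluster of 26 cells (1 duodenum, 6 jejunum, 19 ileum) led by Mmp13 and with Timd4, a receptor for phosphatidylserine, among its leading genes. That cluster held 125 Ptgs1 UMIs in 23 of its cells (level 4.28) and 89 Hpgds UMIs in 22 cells (3.05), but 1 Alox5ap UMI. The Hpgds level of the Timd4 cluster was above that of tuft cells as a whole (2.16). The other macrophage cluster, 62 cells (13 duodenum, 11 jejunum, 38 ileum) led by Emilin2 and with Lyz2 among its 10 leading genes, had Ptgs1 at 0.623, Hpgds at 0.812 and Alox5ap at 2.28. By library, Hpgds there was 1.29 in duodenum, 6.00 in jejunum and 0.312 in ileum, against 3.38 in jejunum and 2.98 in ileum in the Timd4 cluster, so the order of the clusters differed between these segments. The part of this makeup in the segment values was not tested. Alox5 stood at 0.203 on 14 UMIs in the Emilin2 cluster and at 0.103 on 3 UMIs in the Timd4 cluster.

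Alox5ap was also found in dendritic cells, the antigen-presenting cells, at 3.25, 2.65 and 3.58 from duodenum to ileum. It was higher there than in enterocytes by 8.58 on the log2 scale, and tuft cells stood 3.56-fold above dendritic cells when UMIs were summed. That excess was 2.16 in the fit (SE 0.47, adjusted p = 0.00054), but it did not pass with the clusters cut at resolution 1.2, where adjusted p = 0.194, with the members allowed to shape the clusters (0.225) or with sums of at least 20 cells (0.0556), where the ileal sum alone was left for dendritic cells. The dendritic clusters led by Siglech, Cd209b and Xcr1 stood at 6.06, 3.66 and 2.04, and the one led by Cd209b also carried macrophage and monocyte markers. No UMI of Ptgs1 was found in dendritic cells, where a floor of 3 UMIs corresponds to a level of 0.0162, and 3 of Alox5 were. The ratio of tuft cells to dendritic cells for Alox5 was 247 (84.3 to 1200), so Alox5ap without matching Alox5 counts set dendritic cells apart from tuft cells.

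In macrophages 5 of 10 members were higher than in enterocytes (25.9% of genes passed), namely Alox5 (6.47), Alox5ap (7.38), Hpgds (8.09), Ptgs1 (7.62) and Dclk1 (3.82). The last rests on 17 UMIs, all from the ileum. In dendritic cells the count was 4 of 10 (27.6%), in B cells 5 of 10 (28.5%), in T cells 4 of 10 higher (29.3%) and 1 lower (31.1%), and in stem and proliferating cells 3 of 10 (30.1%). Tuft cells carried all 10 members past the filter on low counts in these fits, so the counts are a description and are not read against the share of all genes. With only the 2 classes fitted, 4 of the 5 members left to test passed as higher in macrophages (14.7% of all genes in that fit), 2 of 3 in dendritic cells (20.3%), 1 of 3 in B cells (22.1%), 1 of 5 in T cells (25.3%) and 1 of 2 in stem and proliferating cells (29.2%). Most of the other calls rest on few UMIs. Without the cells of other classes that held a UMI of Avil, Sh2d6, Ly6g6f or Hmx2, an alternative added after the data were seen, only Hpgds still passed as higher in T cells and in B cells, and no member passed as higher in stem and proliferating cells. Of 20 Dclk1 UMIs in stem and proliferating cells, 1 remained. In goblet cells, the mucus-secreting cells, Ptgs1 passed as higher than in enterocytes (2.71, SE 0.72, adjusted p = 0.0044, 16.3% of genes), with 51 of its 56 UMIs in the ileum. Adjusted p was 0.126 without the ileum library and 0.137 in DESeq2.

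Trpm5 was the member with the most UMIs in enterocytes, 302 in all, and they were not spread evenly. In the enterocyte cluster led by Nt5e, Slc28a2 and Ada, genes of nucleoside handling, 108 Trpm5 UMIs were found in 88 of 1188 cells (7.41%). The levels there were 0.119 in duodenum, 0.119 in jejunum and 0.0568 in ileum. A cluster led by Slc23a4, which also had Slc28a2 and Ada among its leading genes, stood at 0.0435, 0.0871 and 0.0258. The other enterocytes stood at 0.00805, 0.0173 and 0.0175. In 3 of 3 libraries the Nt5e cluster lay above the other enterocytes. No test was made between these clusters. The share of cells with a Trpm5 UMI was 7.41% at a median of 8538 UMIs, against 0.534% of goblet cells at 9966 UMIs and 0.487% of T cells at 4263 UMIs. Trpm5 also had 6 UMIs in 2 of 88 macrophages (level 0.0611), 15 in 5 of 615 B cells (0.0447) and 18 in 6 of 223 stem and proliferating cells (0.0404), above the 0.0294 of all enterocytes. The intervals of these 3 classes and of enterocytes overlap, and 17 of the 18 UMIs in stem and proliferating cells lay in the jejunum (0.165).

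Over the 3 libraries together, Trpm5 stood higher against Dclk1 in these enterocyte clusters than in tuft cells. Trpm5 UMIs per Dclk1 UMI were 0.648 (0.619 to 0.678) in tuft cells, 13.5 (6.61 to 32.1) in the Nt5e cluster, 9.0 (4.67 to 19.4) in the Slc23a4 cluster and 2.97 (2.01 to 4.49) in the other enterocytes. In the ileum alone the Slc23a4 cluster stood at 1.5 (0.564 to 4.23), an interval that holds the ileal tuft value of 0.711, and without the jejunum its ratio was 3.25 (1.43 to 8.31). Without the jejunum the ratio of the Nt5e cluster was 8.83 (3.8 to 25.1). When cells with a UMI of Avil, Sh2d6, Ly6g6f or Hmx2 were left out, 289 of the 302 UMIs remained. Tssc4, which overlaps Trpm5 on the opposite strand, was lower in the Nt5e cluster (0.0681) than in the other enterocytes (0.134) and was counted at 0.0134 in tuft cells. In goblet cells both Tssc4 (0.121) and Trpm5 (0.00418) were below the other enterocytes. Of the 88 cells with Trpm5 in the Nt5e cluster, 5 also had Tssc4. The part of the overlap in the Trpm5 counts was not tested. Between T cells and enterocytes the lower Trpm5 in T cells (-1.97, SE 0.83, adjusted p = 0.042) rests on 8 UMIs and did not pass without TMM scaling, in DESeq2 or without the duodenum or ileum library (adjusted p = 0.296, 0.457, 0.0899 and 0.645). Nor did it pass with only the 2 classes fitted (0.0783) or without the library block (0.177). In goblet cells Trpm5 was lower than in enterocytes by a log2 difference of -2.81 (SE 0.89, adjusted p = 0.013, 19.9% of genes lower), on 4 UMIs, and adjusted p was 0.0739 without the duodenum library and 0.0754 in DESeq2.

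**Figure D3:**
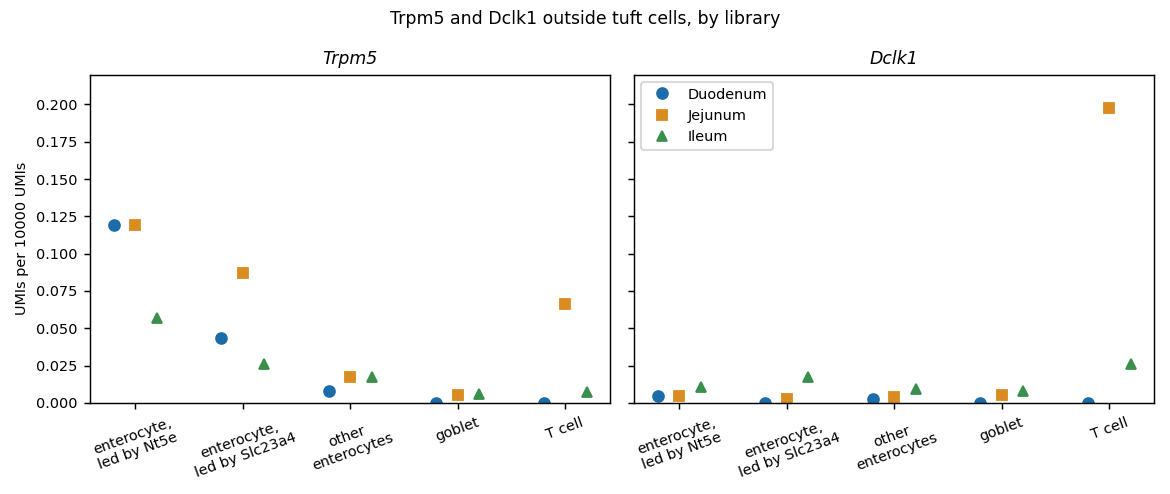
Levels of Trpm5 and Dclk1 (UMIs per 10000 UMIs, linear axis) outside tuft cells, with a marker for each library in enterocyte clusters, goblet cells and T cells. Among the classes plotted, Trpm5 is within each library highest in the Nt5e-led cluster (0.0568 to 0.119), where Dclk1 has 8 UMIs in all, and the high Dclk1 point of jejunal T cells (0.198) stands on 12 UMIs.

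The segments were then set side by side within tuft cells. Sucnr1 and Gnat3 stood lower in the duodenum than in the other segments. For Sucnr1, 25 UMIs were counted in duodenal, 168 in jejunal and 459 in ileal tuft cells, an ileum to duodenum ratio of 9.33 (6.24 to 14.6). The ratio of jejunum to duodenum was 6.69 (4.38 to 10.6), and that of ileum to jejunum 1.39 (1.17 to 1.67). For Gnat3 the ileum to duodenum ratio was 6.55 (3.33 to 14.7) and that of jejunum to duodenum 4.87 (2.35 to 11.3), while ileum and jejunum lay within counting error (1.35, 0.943 to 1.95). These were the 2 of 10 members past 2-fold from duodenum to ileum, where 7.61% of the 7186 genes with enough UMIs were past 2-fold higher. None was past 2-fold lower (10.1% of genes). From duodenum to jejunum the same 2 members were past 2-fold, where 5.06% of genes were, and from jejunum to ileum Il25 alone, where 4.97% were.

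**Figure D4:**
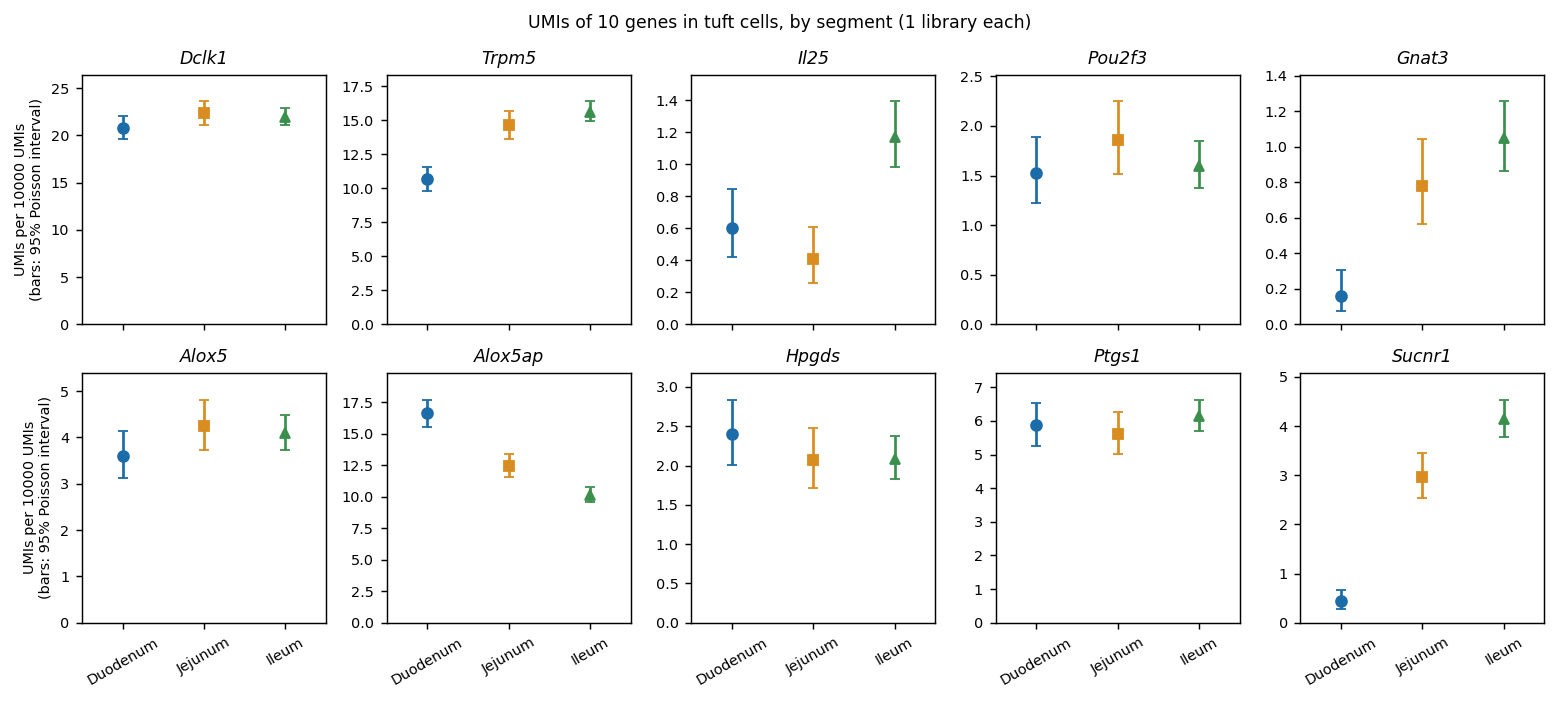
Levels of the 10 members (UMIs per 10000 UMIs, linear axes from 0, a panel each with its own scale) in tuft cells of the duodenum, jejunum and ileum, 1 library each, with 95% Poisson intervals. Sucnr1 goes from 0.444 to 4.14 and Gnat3 from 0.160 to 1.05, Alox5ap from 16.6 to 10.1, and the intervals of Dclk1 and Pou2f3 overlap across segments.

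The other members differed less along the gut. Il25 stood at an ileum to duodenum ratio of 1.94 (1.32 to 2.92) and an ileum to jejunum ratio of 2.88 (1.84 to 4.71), and its duodenal and jejunal levels lay within counting error of each other. Trpm5 had a ratio of 1.47 (1.34 to 1.61) from duodenum to ileum. Alox5ap went the other way, at 0.610 (0.559 to 0.666), with the jejunum between. For Dclk1 (1.06, 0.984 to 1.13), Pou2f3 (1.05, 0.804 to 1.37), Alox5 (1.14, 0.961 to 1.35), Ptgs1 (1.05, 0.917 to 1.2) and Hpgds (0.869, 0.700 to 1.08) the interval included 1. When only tuft cells with at most 20% mitochondrial UMIs were used, Sucnr1 stood at 0.444, 3.03 and 5.29, and as a mean over cells at 0.638, 3.24 and 3.81. With that filter 13 of the 30 member levels moved beyond their counting interval, each upward, and as a mean over cells 10 did, 6 upward and 4 downward. The mean over cells turned the ileum to duodenum ratio of Dclk1, Pou2f3 and Ptgs1, whose intervals include 1, below 1, and that of Ptgs1 was also below 1 without the 10% of tuft cells richest in enterocyte markers.

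**Figure D5:**
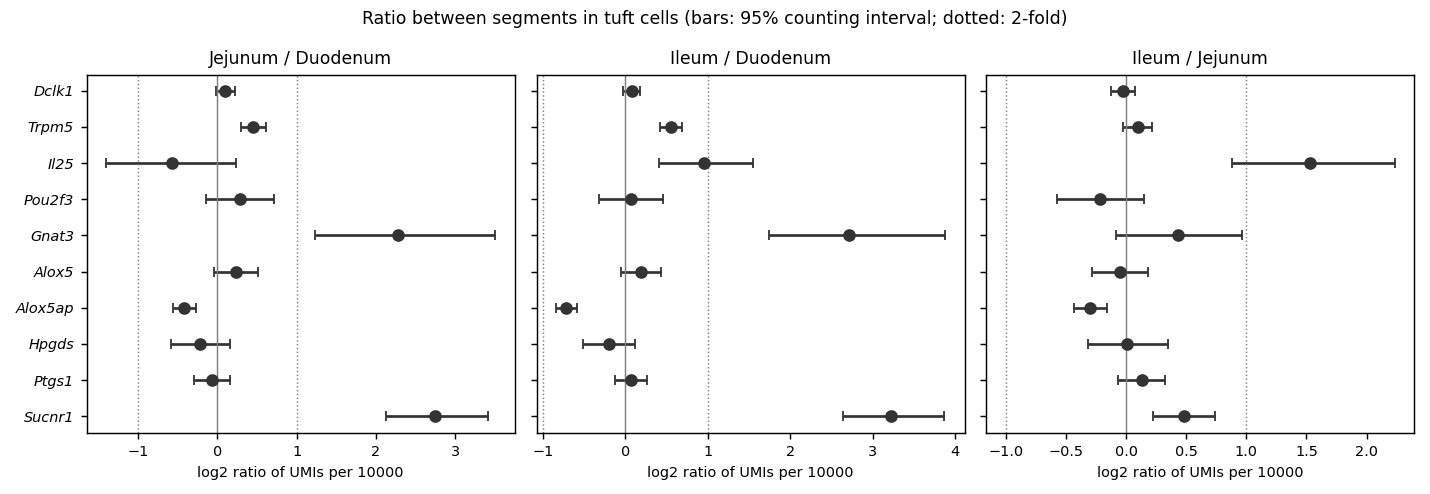
Log2 ratios of member levels in tuft cells between each pair of segments, with 95% intervals for counting error and dotted lines at 2-fold. From duodenum to ileum Sucnr1 (ratio 9.33) and Gnat3 (6.55) lie past the upper line, and Alox5ap (0.610) lies below 0 on the log2 axis without reaching the lower one.

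Pathway genes differed between the libraries in both directions. Of 11 taste-type genes with at least 20 UMIs in tuft cells, 6 had an ileum to duodenum interval above 1 and 2, Gnai2 and Gnb1, one below 1, where 10.4% of the 7957 genes with that many UMIs lay above 1 and 19.1% below. Gng13, the gamma subunit that pairs with gustducin in taste cells, was counted at 0.480, 1.5 and 1.89, a ratio of 3.93 (2.63 to 6.11) from duodenum to ileum. Vmn2r26 was counted at 1, 20 and 46 UMIs, and Gnai1 at 0, 1 and 60 UMIs, at least 10.2-fold higher in ileum than in duodenum against a floor of 3 UMIs. Ffar3 (0.964, 0.816 to 1.14) and Itpr2 (1.09, 0.909 to 1.32) lay within counting error. Plcb2 had a ratio of 1.80 (1.35 to 2.43), Chat one of 1.92 (1.5 to 2.48) and Tslp one of 4.14 (1.88 to 10.8). In their lists the other acetylcholine gene, Bche, had an interval below 1 (0.159, 0.0455 to 0.453), and 3 of 7 type 2 genes had one above 1 and none below. Of 7 arachidonate and leukotriene genes, 4 had an interval below 1 (19.1% of all genes), as Alox5ap did, and 1, Dpep1, an interval above 1 (ratio 3.74, 2.13 to 7.08). The ratio was 0.556 (0.504 to 0.614) for Ltc4s, 0.672 (0.632 to 0.716) for Mgst3 and 0.415 (0.313 to 0.550) for Pla2g4a. Of 7 prostaglandin genes 3 had an interval below 1, against the same 19.1%, and none above. Hpgd, which breaks down prostaglandins, stood at 3.8, 2.81 and 1.01, a ratio of 0.266 (0.210 to 0.336). The genes named here were picked from lists with their ratios seen, so they describe these 3 libraries and are no test of the lists.

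Among single tuft cells the members differed in how widely they were found. Dclk1 and Trpm5 had a UMI in all 298 cells. Alox5ap was found in 94.6%, Alox5 in 85.9%, Ptgs1 in 85.2%, Sucnr1 in 62.8%, Pou2f3 in 58.7%, Hpgds in 57.7%, Gnat3 in 31.9% and Il25 in 28.2%, at a median of 5506 UMIs per cell. In enterocytes, at a median of 9338 UMIs, the shares ran from 0% for Gnat3 to 2.69% for Trpm5. With each cell thinned to 2000 UMIs (289 cells deep enough), the shares in tuft cells fell to between 11.8% for Il25 and 96.2% for Dclk1, and in T cells Dclk1 was at 0.748% and Hpgds at 11.1%. At that depth Sucnr1 was found in 11.6% of duodenal, 39.4% of jejunal and 50.6% of ileal tuft cells, Gnat3 in 2.33%, 15.2% and 14.4%, and Il25 in 9.30%, 7.58% and 13.9%. At equal depth the duodenum was thus again the lowest segment for Sucnr1 and Gnat3, while the jejunal and ileal shares of Gnat3 stood in the other order.

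The tenth of ileal tuft cells with the most UMIs of a member held 70.8% of 130 Il25 UMIs, 55.2% of 116 Gnat3 UMIs, 41.8% of 177 Pou2f3 UMIs, 46.3% of 231 Hpgds UMIs and 43.1% of 459 Sucnr1 UMIs. Such a share also depends on the UMIs per cell, and differences between members were not tested. A tuft cell held a median of 7 of the 10 members, and 296 of 298 cells held at least 3. All 10 were found in 21 cells (2 duodenum, 4 jejunum, 15 ileum). The median was 0 or 1 in every other class.

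Some members were found together at 2000 UMIs per cell, given here as description since cells of 3 segments are pooled. Of the 45 pairs of members, 31 had a higher share of one member in cells with the other than in cells without it, and 14 a lower share, a count without a test. Of the 37 cells with Gnat3, 64.9% also had Sucnr1, against 38.9% of the 252 without. Of the 237 cells with Alox5ap, 65.4% had Ptgs1 and 45.6% had Sucnr1, against 46.2% and 26.9% of the 52 without. For Dclk1 the share was 96.2% in both sets. Ptgs1 was found in 59.9% of cells with Alox5 and in 65.0% of those without.

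Over the 34 sums of a library and class, Pearson's r of log2 levels described which genes had the pattern most like each member. All sums of a library share its depth, 3 of the 34 are tuft sums, and how far r rests on them was not tested. Sucnr1 and Gnat3 were among each other's nearest 3 of 12982 genes (r = 0.993), with Kirrel3 and 4930544F09Rik. Dclk1 was nearest to Trpm5 (0.989), Tek and Sh2d6 (both 0.987), and Trpm5 to Ly6g6f and Sh2d6 (both 0.996) and Rgs22 (0.993). Pou2f3 was nearest to Sh2d7 and Tmem229a (both 0.998), and Il25 to Tnc (0.995), Gm13074 and Dgki.

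The eicosanoid genes, which immune cells also hold, had less close neighbours. Alox5 was nearest to Ank2 (0.973), Ahnak2 and P2rx1, and Ptgs1 to Clec4a1 (0.985), Mcub and Ahnak2, while the nearest to Alox5ap reported here were Pea15a (0.932) and Cd300lf (0.931). Hpgds had the least close neighbours, Acsl4 (0.882), Tmem38b and Kctd12. The least alike members were Gnat3 and Hpgds (r = 0.513).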

How the data were processed

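Per the labels and the submitters' processing notes, the authors sequenced a 3′ droplet library per segment and made UMI count matrices with Cell Ranger 3.0.2 on mm10. The deposited counts are whole UMIs, not normalized, and 27235 barcodes were held in 3 matrices. Kept here were barcodes whose UMIs numbered 800 to 50000 and genes 200 to 6000, with a mitochondrial share of no more than 40%. Cells were integrated and clustered in Seurat 5.3.0 (2000 variable genes, 30 components, resolution 0.8), with the members and pathway genes left out. Classes were named from listed markers by a rule on detected markers and leading genes that was set after the clusters were seen, and 2358 cells stayed unnamed. Doublets were not removed. Scrublet (scanpy 1.11.5) marked none in 2 libraries and 146 in the ileum (1.81%), 10 of them tuft cells, so it cannot be taken to have worked in the former.

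UMIs were summed per library and class (at least 10 cells, 34 sums) and tested in edgeR 4.0.16 by quasi-likelihood with TMM, filterByExpr and the library as a block, with Benjamini-Hochberg adjustment over 12982 genes at 0.05. Fold changes are log2. The SE beside an edgeR difference was worked back from the test, as the absolute log2 difference divided by the square root of the quasi-likelihood F statistic. On simulated counts for tuft cells against enterocytes (11420 genes), 100% of genes changed by 3 and 18.0% of genes changed by 1 on the log2 scale were recovered, with 2 false calls. For tuft cells against macrophages the shares were 95% and 6%, with 5 false calls. Of the 100 genes changed by 1, 86 passed the filter and were tested. The simulation gave all classes the same profile and 1 common spread, with no difference between libraries. Its shares therefore do not describe genes near 0 outside tuft cells, such as most members. Single values have exact Poisson, and shares exact Clopper-Pearson, 95% intervals. Ratios have exact intervals from the binomial distribution, and PCR duplicates were removed only as far as UMIs allow. The pseudocount for likeness was 0.1. Named genes were the members, list genes past the threshold or highest in their list, and the 3 genes most like each member. A gene that this rule names for Alox5ap is not reported here. The contrasts with dendritic cells, macrophages and IgA-producing B cells, and of goblet and stem cells with enterocytes, were added after the data were seen. Alternatives covered clustering, cell filters, doublets, tuft-marker cells, normalization, DESeq2 1.42.0, sum size, fit and leaving out a library. The members and gene lists were chosen with earlier results of these data known.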

Additional observations from a re-analysis of the deposited data

Results flagged for a closer look

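Member UMIs were also counted in the 10549 barcodes that the filters left out, most of them for a mitochondrial share over 40%. The sums were 468 UMIs for Dclk1, 327 for Trpm5, 284 for Alox5ap, 147 for Ptgs1, 126 for Hpgds, 106 for Alox5, 47 for Sucnr1, 35 for Pou2f3, 13 for Il25 and 8 for Gnat3, each above the limit that a count of 0 allows. Of these barcodes, 52 held at least 3 of the tuft naming markers (6 duodenum, 18 jejunum, 28 ileum), and they carried 423 of the Dclk1 UMIs, 227 of Trpm5, 230 of Alox5ap and 19 of Sucnr1. A Dclk1 UMI was found in 29 of the 52, and their Dclk1 level was 9.05 in duodenum, 8.29 in jejunum and 1.90 in ileum, below that of kept tuft cells. Their median mitochondrial share was 45.4%, 51.6% and 27.8%, so the ileal ones were not mostly left out for it. They are not among the 298 tuft cells.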

How the results depend on the processing

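Of 2185 values of single members recomputed under the alternatives, 2054 kept direction and side of the threshold, 110 no longer passed, 5 passed anew and 16 changed sign. The counts of members higher in tuft cells than in each other class tested (Paneth cells, with 1 sum, were not) stayed within 1.5 times, except that 4 rather than 9 passed against macrophages in DESeq2. Without the ileum library Gnat3 was not tested, so 9 of 9 passed against enterocytes. Apart from fits of only 2 classes, the share of all genes that passed is not given for the alternatives, so their counts are description. From duodenum to ileum 2 members were past 2-fold under each alternative except without doublets, where Il25 made it 3. Of 30 tuft levels 13 left their counting interval at 20% mitochondrial UMIs, 10 as a mean over cells, 3 without the tuft cells richest in enterocyte markers and 1 without doublets, and the largest change of any of them was 1.44-fold. Counts in other classes against enterocytes were less stable. For T cells (4 members) the count was 1 without integration, at most 20% mitochondrial UMIs, without cells holding at least 2 tuft naming markers or any of the 4 markers, 2 with sums of at least 20 cells, and 1 to 5 when a library was left out. For B cells (5) it was 1 at resolution 1.2, or without marker-holding cells by either rule, 3 at 20% mitochondrial UMIs and in DESeq2, and 1 to 4 without a library. For dendritic cells (4) it was 2 at resolution 1.2 or with members allowed in the clustering, 1 without cells holding at least 2 markers, and 2 to 4 without a library. For stem and proliferating cells (3) it was 1 at 20% mitochondrial UMIs or with sums of at least 20 cells, 0 without marker-holding cells by either rule, and 0 to 3 without a library. In DESeq2 Dclk1 and Il25 in T cells (adjusted p = 0.0725 and 0.478), Dclk1 and Pou2f3 in stem and proliferating cells (0.0835 and 0.433), Dclk1 in macrophages (0.082) and Sucnr1 in dendritic cells (0.36) did not pass against enterocytes. For goblet cells (1) it was 0 in DESeq2, and 0 to 1 without a library, 0 being without the ileum. With only the 2 classes fitted, the filter on low counts left fewer members to test, and 1 of 5 tested passed in T cells, 1 of 3 in B cells, 2 of 3 in dendritic cells and 1 of 2 in stem and proliferating cells. Of the earlier calls tested there, Dclk1 no longer passed in T cells (adjusted p = 0.0612) and B cells (0.0652). With sums of at least 20 cells, dendritic cells and macrophages had 1 sum each, assumed to vary like the other classes. The rule on at least 2 markers also removed 309 of 1232 T cells, 270 of 615 B cells and 110 of 124 dendritic cells.

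The signs that changed were mostly those of log2 differences on few UMIs. Against enterocytes, Il25 in T cells was -0.52 without integration. In B cells Alox5 was -2.64 at resolution 1.2 and -2.37 without cells holding at least 2 markers. Leaving out a library gave -2.29 to 3.90 for Alox5, -1.43 to 2.95 for Pou2f3 and -3.77 to 2.75 for Alox5ap in B cells, -3.78 to 3.81 for Dclk1 in macrophages and -2.32 to 3.57 for Alox5 in dendritic cells, each lowest without the ileum. Without cells holding at least 2 markers Alox5 in dendritic cells was -2.39. Sucnr1 there was -4.50 at resolution 1.2 and with members allowed in the clustering. In stem and proliferating cells Dclk1 was -1.57 and Alox5ap -1.62 without cells holding at least 2 markers, and Dclk1 was -1.98 without the 4 markers and -1.62 (without the jejunum) to 3.66 without a library. Hpgds in tuft cells against macrophages was -0.065 without the ileum and 1.30 without the jejunum. The cause was not tested. No paired analysis was possible because each segment has 1 library; comparisons of classes were already blocked by library. Without that block Ptgs1 in tuft cells against macrophages (adjusted p = 0.154) and the lower Trpm5 in T cells against enterocytes (0.177) did not pass. Contrasts with stem and proliferating cells had no value without integration or with members allowed in the clustering, where those cells fell in another class, and contrasts with dendritic cells had none without integration. Depth limits Il25 and Gnat3 most, with 187 and 169 UMIs in tuft cells.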
